A study of Mus musculus with 16 samples.

Results

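Transcripts of 8 genes were followed in the epidermis of the mouse footpad: Tslp, Il33 and Il18, which encode alarmin cytokines; Crlf2, Il7r and Il1rl1, which encode receptor chains for TSLP and IL-33; and F2r and F2rl1, which encode the protease-activated receptors PAR1 and PAR2. They were chosen by symbol, as rows of the deposited count table whose Ensembl identifiers carry these names, and are 8 of the 50600 genes listed. All 8 were among the 22155 genes that entered the model, having 10 or more counts over all libraries, and none shares exonic bases with another gene in GENCODE release M21. The libraries came from 16 female C57/B6J mice, 1 mouse each, in 4 groups of 4. From 5 wk of age all mice were fed for 3 wk a purified diet poor in ligands of the aryl hydrocarbon receptor (AhR), which was given alone (AhR-poor diet) or with 200 ppm of indole-3-carbinol, a precursor of AhR ligands (I3C diet). Footpads then received 50 μl of PBS without (vehicle) or with 50 μg of papain, a plant cysteine protease that acts as an allergen, and epidermal cells were taken 6 hr later. Mice on the same diet shared a cage, so diet and cage cannot be told apart, and the sequencing unit of each library, of the 3 named in the methods, was not given by the labels.

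Alarmins are cytokines that epithelial cells make or store and release on damage, allergen contact or protease exposure. TSLP signals through a pair of chains, CRLF2 and the IL-7 receptor alpha chain encoded by Il7r, and acts on dendritic cells, Langerhans cells and lymphocytes. IL-33 binds ST2, the product of Il1rl1, on mast cells, group 2 innate lymphoid cells and T cells, while IL-18 is made as a precursor that caspase-1 cleaves. PAR1 and PAR2 are G protein-coupled receptors that a protease switches on by cutting their extracellular end, which exposes a ligand carried by the receptor itself, and in keratinocytes PAR2 signalling is known to induce Tslp.

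The libraries held from 22500821 to 51844375 counts, and 3 counts in a library, taken as the floor of detection, equal 0.0569 to 0.130 CPM (counts relative to library size). That floor covers counting error only. The 6 keratinocyte markers Krt5, Krt14, Krt1, Krt10, Trp63 and Dsp were abundant in every library, with a summed level between 40584 and 66022 CPM. Markers of other cells differed between the groups and are given beside the results whose pattern they share in part. Library T108 of the I3C vehicle group was the highest of its group in 4 of the 8 genes, Tslp, Il33, F2r and F2rl1, and their values are also given without it. The samples were mice, so p-values rest on the spread between mice of the same diet and injection, and not on that between cages.

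On GRCm38, Il1rl1 lies on chromosome 1 from 40429570 to 40465415, with Il18r1, the gene of the IL-18 receptor binding chain, starting after a gap of 136 bases and Il18rap, its accessory chain, 14.5 kb further on. F2rl1 (95511732 to 95525227) and F2r (95601803 to 95618487) are neighbours on chromosome 13, 76.6 kb apart, with the related receptor gene F2rl2 78.4 kb beyond F2r. Il33 lies on chromosome 19 from 29925114 to 29960718 and Il18 lies on chromosome 9 from 50554827 to 50581840. Crlf2 is on chromosome 5 from 109554709 to 109558993, and Il7r on chromosome 15 from 9505788 to 9530176. The promoters of Il1rl1 and F2r are shown because these genes had the largest rise after papain and the fall after papain described below. Each window runs from 250 bases before to 50 bases after a start site in RefSeq (GRCm38.p6), which held an entry for 6 of the 8 genes. Il1rl1 has 2 such windows, on the plus strand at chr1:40429320-40429619 (start 1) and chr1:40439379-40439678 (start 2), and F2r has 1, on the minus strand at chr13:95618417-95618716. Capitals mark matches, on either strand, to the core of the AhR response element (GCGTG, or CACGC in the printed strand), to the AP-1 site (TGANTCA) or to the GATA site (AGATAA, or TTATCT in the printed strand).
Il1rl1 start 1: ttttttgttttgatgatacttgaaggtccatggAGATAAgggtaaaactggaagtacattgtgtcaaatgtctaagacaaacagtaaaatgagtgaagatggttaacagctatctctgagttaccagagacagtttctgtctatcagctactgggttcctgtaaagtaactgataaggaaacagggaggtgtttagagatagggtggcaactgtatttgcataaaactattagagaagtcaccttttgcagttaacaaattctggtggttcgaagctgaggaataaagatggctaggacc
Il1rl1 start 2: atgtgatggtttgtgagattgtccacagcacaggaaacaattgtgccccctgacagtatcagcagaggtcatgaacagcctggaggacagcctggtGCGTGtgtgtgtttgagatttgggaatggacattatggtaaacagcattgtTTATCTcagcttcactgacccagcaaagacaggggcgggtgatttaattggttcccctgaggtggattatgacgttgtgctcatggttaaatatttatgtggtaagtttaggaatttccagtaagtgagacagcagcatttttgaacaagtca
F2r: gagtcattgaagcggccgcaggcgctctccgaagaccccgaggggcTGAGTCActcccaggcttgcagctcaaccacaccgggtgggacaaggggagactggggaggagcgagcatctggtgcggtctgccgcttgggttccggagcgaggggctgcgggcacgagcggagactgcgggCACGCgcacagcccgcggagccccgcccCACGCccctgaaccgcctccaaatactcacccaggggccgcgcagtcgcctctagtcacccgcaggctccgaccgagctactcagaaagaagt
The first Il1rl1 window held 1 GATA match, 217 bases before the start. The second held 1 AhR core, 154 bases before the start, and 1 GATA match nearer to the start. The F2r window held 2 AhR cores, at 71 and 43 bases before the start, and 1 AP-1 match at 204 bases. Among the 32851 RefSeq windows of this length, 32.4% held the AhR core, 7.81% the AP-1 site and 11.2% the GATA site, and the Il18 and Il7r windows held none of these letters. A match is a run of letters and not a measured binding site. GENCODE lists 5 transcripts of Il1rl1. Those that end at 40441407, 40446723 and 40448148 stop well short of the 3′ end of the gene. The gene's count therefore adds up reads of short and long forms that it cannot separate.

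The quasi-likelihood F test of edgeR was used to compare the groups, and a gene was counted as changed when its adjusted p over all genes tested was below 0.01 and its log2 fold change exceeded 1 in either direction. Between the diets with vehicle, 0 of the 8 genes passed, where 1.59% of all genes did, and 3 of the 8 had an unadjusted p below 0.05, beside 12.5% of all genes. Between the diets with papain, 3 passed (Il18, Il7r and Il1rl1, all higher on the AhR-poor diet), against 7.24% of all genes. After papain on the AhR-poor diet, 3 passed (Tslp, Il18 and Il1rl1, all higher), against 8.46% of all genes. After papain on the I3C diet, 2 passed (Tslp higher and F2r lower), against 8.98% of all genes. In the interaction, which asks whether the papain response differed between the diets, 0 passed where 0.0181% of all genes did (4 genes, and 2 to 95 with single libraries left out, the highest without T112), and 2 had an unadjusted p below 0.05, Crlf2 and F2r, beside 13.5% of all genes. When an adjusted p of 0.05 was the only threshold, the 8 genes gave 1, 5, 5, 2 and 0 calls in these 5 comparisons, beside shares of all genes of 3.08%, 20.7%, 33.4%, 35.3% and 0.329%. An adjusted p of 0.01 with any fold change gave 0, 4, 5, 2 and 0 calls, beside shares of 1.72%, 11.2%, 22.5%, 25.7% and 0.0181%. An unadjusted p of 0.05 gave 3, 5, 5, 4 and 2, beside shares of 12.5%, 32.0%, 42.0%, 43.3% and 13.5%. The comparisons share libraries, since each group serves in more than 1 of them. Over all genes tested, the median of the log2 fold changes lay between -0.04 and 0.03 in the 5 comparisons.

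**Figure D1:**
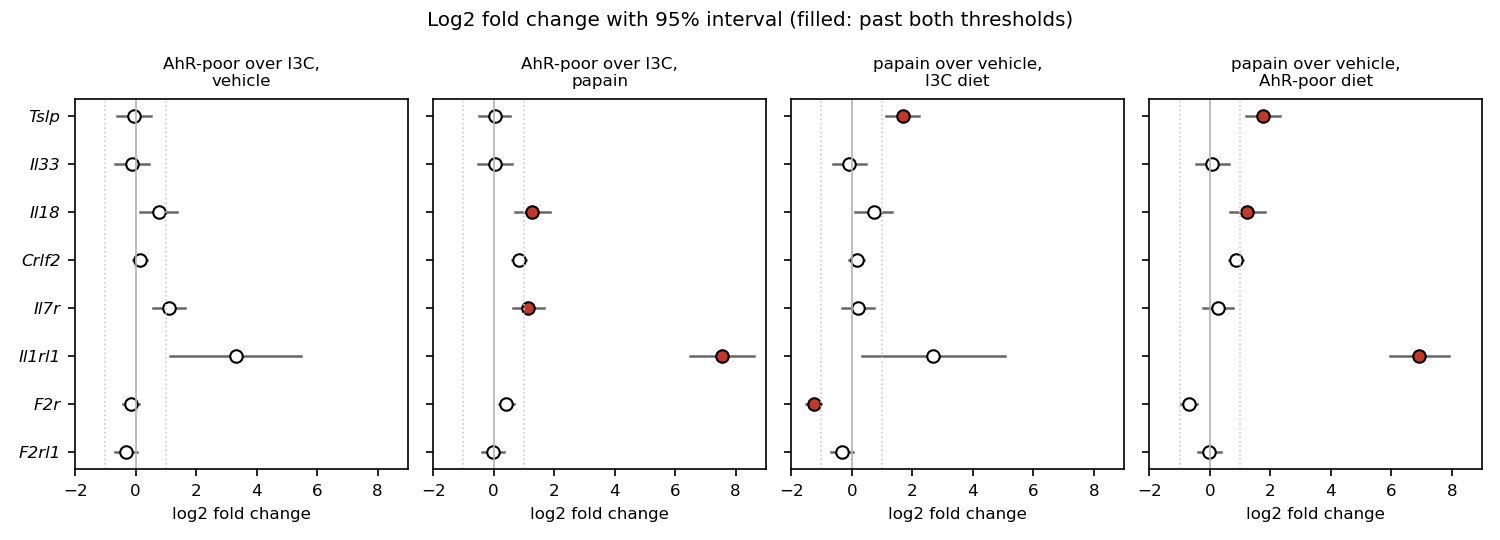
Log2 fold changes (x axis) of the 8 genes (y axis) in 4 comparisons, with bars for the 95% interval of the edgeR estimate, dotted lines at 1 and -1, and filled points where both thresholds were passed. Tslp passed after papain on both diets (1.76 and 1.68), while Il1rl1 lay at 7.55 between the diets with papain and 6.93 after papain on the AhR-poor diet.

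Levels of different genes were compared per length, as CPM per kb of exon (RPKM), over all 16 libraries. F2rl1 was the most abundant transcript, with a mean of 32.0 RPKM and 26.8 RPKM in its lowest library. Il33 (mean 8.23), Crlf2 (8.03) and F2r (6.13) came next, and their ranges over libraries overlapped (5.21 to 12.5, 5.68 to 13.9 and 3.26 to 10.9 RPKM). Tslp had a mean of 4.14 RPKM and Il18 of 1.80. This order did not hold in every group. Tslp stood above F2r with papain on the I3C diet (6.27 against 3.56 RPKM) and on the AhR-poor diet (6.43 against 4.76). Crlf2 stood above Il33 with papain on the AhR-poor diet (12.3 against 8.37 RPKM). Il1rl1 (1.38) and Il7r (1.36) had nearly the same mean and quite different spreads, from 0 to 7.72 RPKM for Il1rl1 and from 0.501 to 2.40 for Il7r. The Il1rl1 mean was 5.43 RPKM with papain on the AhR-poor diet and at most 0.0444 RPKM in the other groups. The TSLP receptor chains were unequal, with a level of Crlf2 over Il7r, per length, of 8.35 ± 2.74 with vehicle and 8.25 ± 3.25 with papain on the I3C diet, and of 4.11 ± 0.987 and 6.17 ± 0.549 on the AhR-poor diet (SD, n = 4). The ratio was lower with vehicle on the AhR-poor diet, at 3.11 to 5.08, than with vehicle on the I3C diet, at 5.47 to 12.0, without overlap.

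**Figure D2:**
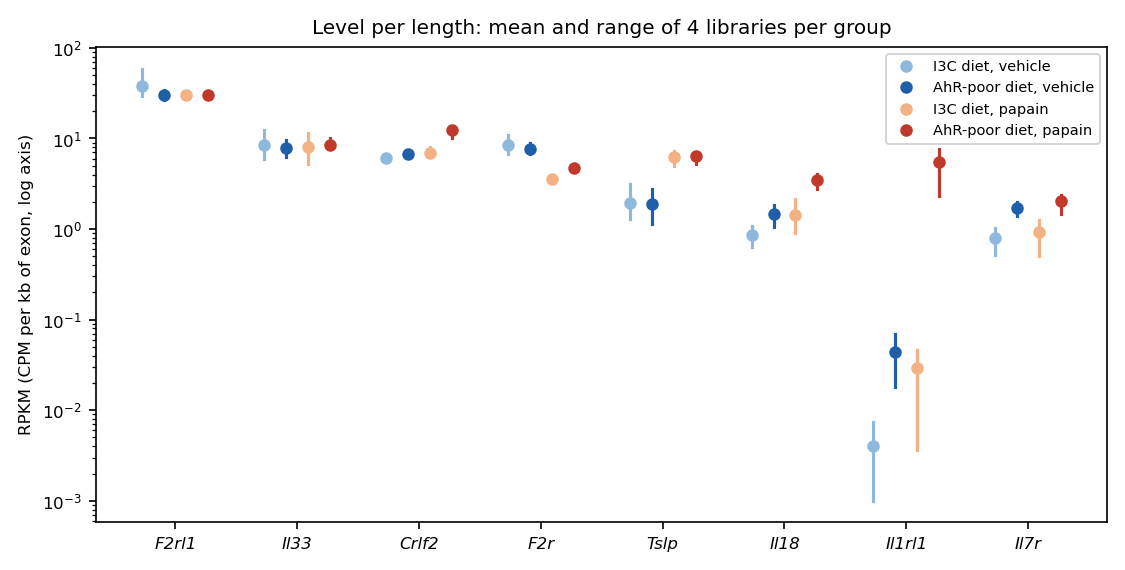
Level per length of each gene (RPKM, log axis), with a point for the mean and a bar for the range of 4 libraries in each group, genes ordered by their mean over all libraries. The lowest library of F2rl1 lay at 26.8 RPKM, and Il1rl1 moved from 0.00398 RPKM on average with vehicle on the I3C diet (its lowest library, at 0, is drawn at the bottom of the bar) to 5.43 with papain on the AhR-poor diet.

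Tslp, which lies on chromosome 18 from 32815383 to 32819797, was induced by papain to nearly the same level on both diets. With vehicle it stood at 1.71, 2.12, 2.37 and 4.22 CPM in the libraries of the I3C diet, and at 1.51, 2.17, 2.72 and 3.71 CPM in those of the AhR-poor diet. The papain libraries gave 6.54, 8.50, 8.58 and 9.76 CPM on the I3C diet and 6.94, 8.70, 9.16 and 9.41 CPM on the AhR-poor diet. On each diet every papain library lay above every vehicle library, and between the diets the ranges overlapped. On the I3C diet the mean rose from 2.61 ± 1.11 to 8.35 ± 1.33 CPM (SD, n = 4), or 1.68 on the log2 scale (standard error, SE, of 0.26, edgeR adjusted p = 5.73e-05). The rise on the AhR-poor diet was from 2.53 ± 0.929 to 8.55 ± 1.11 CPM (SD, n = 4), or 1.76 on the log2 scale (SE 0.26, edgeR adjusted p = 4.97e-05). The difference between these responses was 0.07 on the log2 scale, with a 95% interval from -0.69 to 0.84, which takes in differences of either sign. Between the diets, Tslp differed by -0.04 with vehicle (95% interval -0.61 to 0.52) and by 0.03 with papain (-0.49 to 0.56). Without T108 the I3C vehicle mean was 2.07 ± 0.335 CPM (SD, n = 3) and the papain response there 2.02, while the diet difference with vehicle turned to 0.29 and the difference between the responses to -0.26.

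Il33, whose product is stored in the nucleus of keratinocytes, showed no difference beyond the spread of its libraries in any comparison. It stood at 17.0, 17.8, 28.0 and 36.2 CPM with vehicle and 15.03, 22.3, 23.4 and 32.9 CPM with papain on the I3C diet. On the AhR-poor diet the values were 18.2, 19.6, 24.96 and 28.0 CPM with vehicle and 21.9, 22.0, 23.3 and 29.5 CPM with papain. All 4 groups overlapped, with means between 22.7 and 24.7 CPM. The papain response on the AhR-poor diet was 0.09 on the log2 scale (95% interval -0.46 to 0.64) and -0.08 on the I3C diet (-0.63 to 0.47). The diet difference was -0.12 with vehicle (-0.67 to 0.43) and 0.04 with papain (-0.51 to 0.59). Each interval takes in changes of either sign, so Il33 changes of that size remain possible. The vehicle difference between the diets was 0.12 without T108.

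Il18 was the least abundant of the ligands per length and was highest with papain on the AhR-poor diet. The 4 libraries of that group held 2.88, 3.33, 3.79 and 4.21 CPM, above every library of the other groups. The vehicle libraries held 1.10, 1.16, 1.85 and 1.90 CPM on the AhR-poor diet and 0.660, 0.688, 1.09 and 1.11 CPM on the I3C diet. Papain libraries of the I3C diet held 0.930, 1.09, 1.57 and 2.24 CPM, overlapping the vehicle libraries of both diets. Papain raised Il18 on the AhR-poor diet from 1.51 ± 0.432 to 3.55 ± 0.574 CPM (SD, n = 4), or 1.24 on the log2 scale (SE 0.27, edgeR adjusted p = 0.00151). On the I3C diet the means were 0.887 ± 0.246 and 1.46 ± 0.588 CPM (SD, n = 4), or 0.73 on the log2 scale, which did not pass (edgeR adjusted p = 0.0599). The difference between these responses, 0.51 on the log2 scale with a 95% interval from -0.32 to 1.35, did not pass either (edgeR adjusted p = 0.610). Between the diets with papain, Il18 was higher on the AhR-poor diet by 1.28 (SE 0.27, edgeR adjusted p = 0.00239), a call that was lost without T113 (1.13, adjusted p = 0.0109) and without T115 (1.16, adjusted p = 0.0129) of the I3C papain group. In bulk RNA from a tissue, fewer cells of a type and less RNA per cell cannot be told apart, which applies to every level given here.

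**Figure D3:**
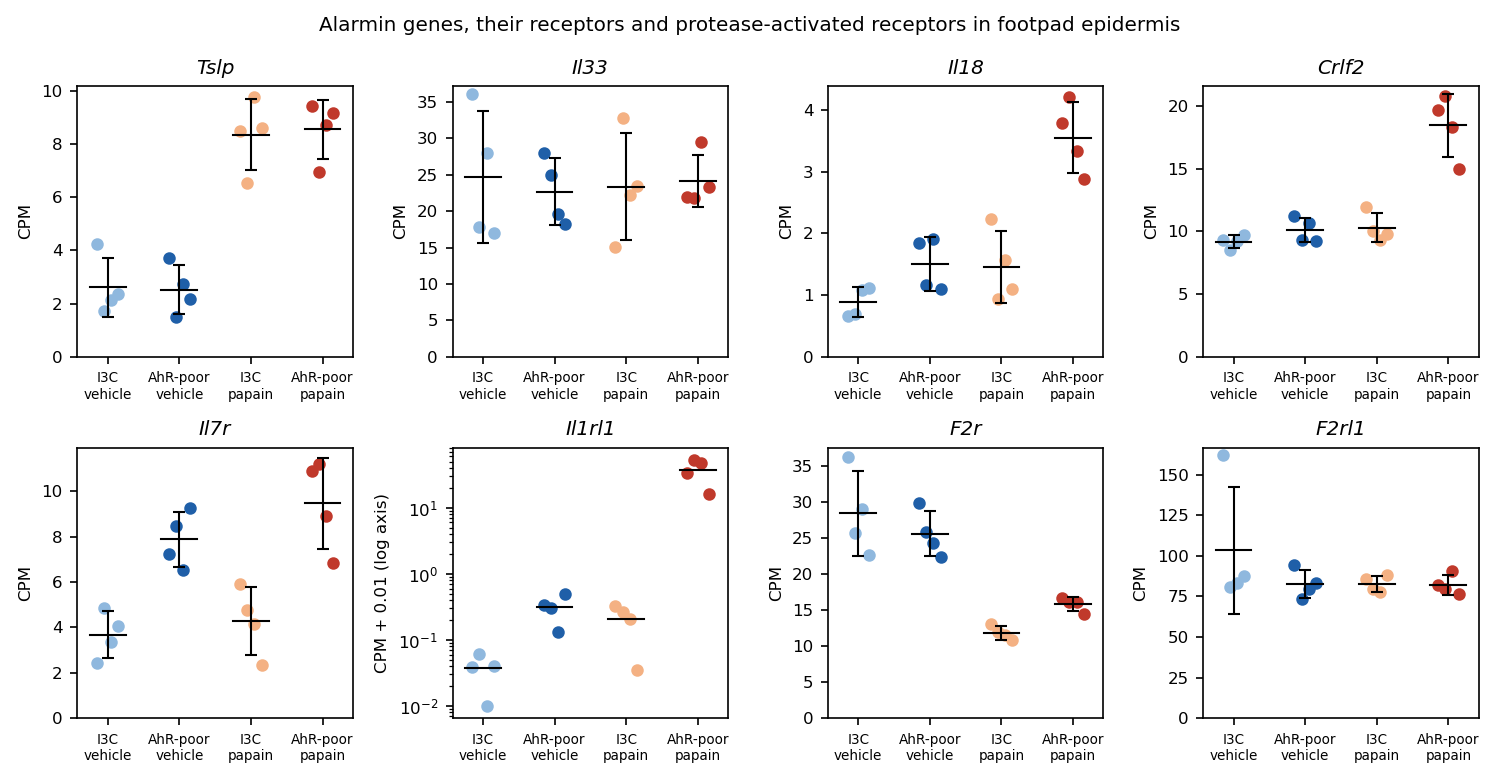
Level of each gene in each library (CPM, y axis) by diet and injection, with a point for each mouse and, on linear axes that start at 0, a bar for the mean with its SD. Il1rl1 is drawn as CPM + 0.01 on a log axis with a bar for the mean alone, and its 4 libraries from papain on the AhR-poor diet (15.9 to 53.2 CPM) stand above all the others, which reach 0.483 CPM at most.

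Among the receptors, Il1rl1, whose start windows are printed above, had the widest range on the log scale, being near the floor of detection in 3 of the 4 groups. With vehicle on the I3C diet its libraries held 0, 1, 1 and 2 counts, 4 in all, which is 0 to 0.0510 CPM. With papain on the I3C diet they held 1, 7, 8 and 13 counts (0.0249 to 0.317 CPM), and with vehicle on the AhR-poor diet 5, 11, 12 and 18 counts (0.124 to 0.483 CPM). With papain on the AhR-poor diet the counts were 584, 1086, 1368 and 2806, or in the same order 15.9, 47.0, 33.7 and 53.2 CPM. This last group did not overlap any other. The fitted log2 fold change of the papain response with AhR-poor feeding was 6.93 (SE 0.46, edgeR adjusted p = 7.62e-08). Counted reads, 5844 against 46 over the groups and scaled to library size, gave a ratio of 126 with an exact 95% interval of 94.5 to 173 that covers counting error only. Between the diets with papain, the fitted value was 7.55 (SE 0.49, edgeR adjusted p = 2.08e-07) and the ratio of 5844 to 29 counts was 194 (135 to 290).

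At the low end, Il1rl1 was also listed with more counts with vehicle on the AhR-poor diet than with vehicle on the I3C diet, 46 against 4, a ratio of 10.9 (3.98 to 41.7). No I3C library reached the lowest AhR-poor one (two-sided exact permutation p = 0.0286, the smallest that 4 against 4 can give), while the edgeR adjusted p was 0.117. The papain response on the I3C diet was 29 counts against 4, a ratio of 7.08 (2.49 to 27.7, edgeR adjusted p = 0.0738), with overlapping groups, and DESeq2 called it (adjusted p = 0.00282) as it did the vehicle difference (adjusted p = 0.00151). The interaction of Il1rl1 was 4.24 on the log2 scale with a 95% interval from -0.07 to 8.55, since the fitted value depends on a group with 4 counts in all. Its edgeR adjusted p was 0.379, and DESeq2 called it (adjusted p = 0.00195). The papain rise on the AhR-poor diet therefore passed, while its excess over the response on the I3C diet did not pass in edgeR.

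Markers of several cell types were, like Il1rl1, highest with papain on the AhR-poor diet. Over 7 dermal fibroblast markers the median summed level was 10.6 CPM with vehicle and 4.77 with papain on the I3C diet, and 108.5 and 529 CPM on the AhR-poor diet. The 7 endothelial markers summed to medians of 1.58, 1.13, 16.1 and 40.0 CPM in the same order, and the 7 neutrophil markers to 2.24, 36.7, 8.29 and 184 CPM. With papain on the I3C diet Cxcr2 and Mmp9 made up most of the neutrophil sum, with means of 24.2 and 10.1 CPM, while Csf3r was at 0.739 CPM and Ly6g had no count. With papain on the AhR-poor diet Csf3r was at 57.8 CPM and Ly6g at 1.81 CPM. For mast cells, which carry ST2, the 7 markers summed to 1.75, 2.11, 3.11 and 16.2 CPM, of which Kit made up most on the I3C diet. Fcer1a and Ms4a2, subunits of the high-affinity IgE receptor, had no count on the I3C diet with either injection, and the mast cell protease Mcpt4 had a mean of 4.49 ± 2.24 CPM (SD, n = 4) with papain on the AhR-poor diet. Of the 5 markers of group 2 innate lymphoid cells, Gata3 and Rora, which keratinocytes also express, made up most of the sum, and Klrg1 did not exceed 0.114 CPM in any library. Gata3 and Rora had lower means with papain than with vehicle on both diets. Il2ra had means of 0.521 and 1.13 CPM with vehicle and papain on the I3C diet, and of 0.820 and 2.25 CPM on the AhR-poor diet. For Areg the means were 10.9 and 26.4 CPM on the I3C diet, and 10.9 and 28.6 CPM on the AhR-poor diet. Within the papain group of the AhR-poor diet, T112 was the lowest and T105 the highest library in Il1rl1, and also in the summed fibroblast (253 and 623 CPM), mast cell (8.19 and 22.3), neutrophil (58.3 and 305) and dendritic cell and monocyte (66.9 and 233) markers. The order was not shared by every list, since T107 was lowest in the endothelial sum (22.2 CPM, against 32.0 in T112) and T104 was highest in the Langerhans and T cell sums. The part of these cells in the result was not tested.

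**Figure D4:**
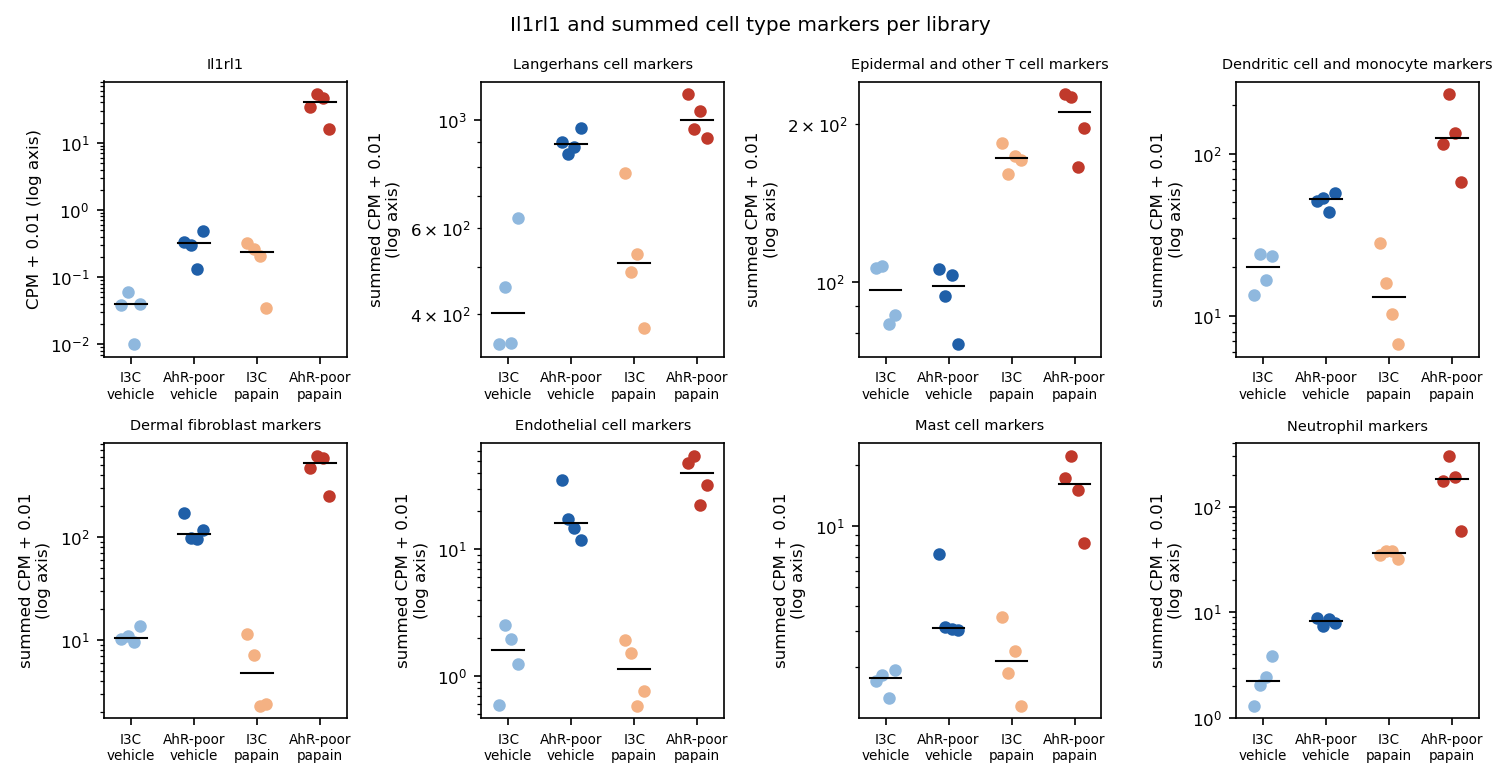
Il1rl1 and the summed CPM of 7 marker lists of 7 genes each, by group, on log axes with 0.01 added, with a point for each library and a bar for the median. The fibroblast sums lie between 253 and 623 CPM with papain on the AhR-poor diet and between 2.28 and 11.6 CPM with papain on the I3C diet.

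Crlf2, the TSLP-binding chain, was steady in 3 groups and higher in the fourth. The vehicle libraries held 8.49, 9.22, 9.27 and 9.69 CPM on the I3C diet and 9.23, 9.32, 10.6 and 11.2 CPM on the AhR-poor diet. The papain libraries held 9.33, 9.82, 10.01 and 12.0 CPM on the I3C diet, against 14.98, 18.4, 19.7 and 20.8 CPM on the AhR-poor diet. That last group lay above all other libraries, and the others overlapped. The papain response on the AhR-poor diet was 0.87 on the log2 scale (SE 0.11, edgeR adjusted p = 1.10e-05), or 1.83-fold, which is under the minimum fold change. With papain the diets differed by 0.84 (SE 0.11, edgeR adjusted p = 3.40e-05), also under it. On the I3C diet the papain response was 0.17 (95% interval -0.07 to 0.41, edgeR adjusted p = 0.291). The difference between the responses was 0.70 with an interval from 0.36 to 1.04 and an unadjusted p of 3.56e-04, and it did not pass over all genes (edgeR adjusted p = 0.0689). Over the alternatives that adjusted p ran from 0.00284, in DESeq2, to 0.154, with a difference of 0.64 to 0.80 that stayed under the minimum fold change.

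Il7r, the partner chain that TSLP and IL-7 share, was higher on the AhR-poor diet with either injection. On the I3C diet its libraries held 2.41, 3.37, 4.08 and 4.84 CPM with vehicle and 2.34, 4.14, 4.78 and 5.89 CPM with papain. On the AhR-poor diet they held 6.53, 7.25, 8.47 and 9.25 CPM with vehicle and 6.85, 8.92, 10.9 and 11.2 CPM with papain. No library of the I3C diet, of 8, reached the lowest of the 8 from the AhR-poor diet. With papain the difference passed, from 4.29 ± 1.49 to 9.46 ± 2.004 CPM (SD, n = 4), at 1.14 (SE 0.25, edgeR adjusted p = 0.00286). With vehicle it was of nearly the same size, 1.10 (SE 0.25), and did not pass the adjusted p of 0.01 (edgeR adjusted p = 0.0171). The diet differences with vehicle and papain differed by 0.05 (95% interval -0.68 to 0.78). Papain moved Il7r by 0.27 on the AhR-poor diet (-0.24 to 0.77) and by 0.22 on the I3C diet (-0.31 to 0.75). The papain call between the diets was lost with the model fitted to the 8 libraries of that comparison (1.15, adjusted p = 0.0121) and without T114, T115, T104 or T105 (log2 fold changes of 0.94 to 1.13 and adjusted p of 0.00815 to 0.0123), and DESeq2 called the vehicle difference (adjusted p = 8.95e-04).

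The Il7r values moved with markers of Langerhans cells, the dendritic cells of the epidermis, over 7 genes. These summed to 347 to 630 CPM with vehicle and 374 to 777 CPM with papain on the I3C diet, and to 851 to 964 and 920 to 1130 CPM on the AhR-poor diet, with no overlap between the diets. Cd74, H2-Ab1 and H2-Eb1, genes of antigen presentation on class II molecules, made up much of the difference, with Cd74 means of 124 and 302 CPM with vehicle on the I3C and AhR-poor diets. Epcam, which was a large part of the sum, had means of 100.975 and 112.664 CPM there and of 169 and 193 CPM with papain, and Cd1d1 had a higher mean on the I3C diet with papain (3.18 against 2.18 CPM). Cd207, which encodes langerin, had means of 17.9 and 55.2 CPM with vehicle and 13.9 and 33.7 CPM with papain on the I3C and AhR-poor diets. The 7 dendritic cell and monocyte markers did the same, at 13.4 to 24.1 and 6.66 to 28.2 CPM against 44.0 to 57.1 and 66.9 to 233 CPM. The 7 T cell markers, of which Thy1 made up most, overlapped between the diets with vehicle, at 83.1 to 107.3 and 76.0 to 105.9 CPM, and stood at 161 to 184 and 166 to 229 CPM with papain. The other 6 of them had higher means on the AhR-poor diet with either injection, such as Trdc, the constant gene of the T cell receptor delta chain, with 6.35 against 10.8 CPM with vehicle and 7.18 against 17.8 CPM with papain. In the I3C papain group T106 was the highest library and T115 the lowest in Il7r, in Il1rl1, in the Langerhans cell sum and in the dendritic cell and monocyte sum. The AhR-poor groups did not follow this in the Langerhans cell sum, since with papain T105 was highest in Il7r but second lowest in the Langerhans cell sum (957 CPM), and with vehicle T101 was second highest in Il7r and lowest in that sum (851 CPM). With papain on the AhR-poor diet the libraries T112, T107, T104 and T105 stood in the same ascending order in Il18, Crlf2 and Il7r. The part of these cells in the levels of Il7r, Crlf2 and Il18 was not tested.

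F2r, the gene of the thrombin receptor PAR1, whose promoter window is printed above, fell after papain. With vehicle its libraries held 22.7, 25.7, 29.1 and 36.3 CPM on the I3C diet and 22.4, 24.3, 25.9 and 29.9 CPM on the AhR-poor diet. The papain libraries held 10.9, 11.5, 12.0 and 13.1 CPM on the I3C diet and 14.5, 16.1, 16.2 and 16.7 CPM on the AhR-poor diet. No papain library reached any vehicle library, and with papain the diets did not overlap. On the I3C diet the mean went from 28.4 ± 5.87 to 11.9 ± 0.929 CPM (SD, n = 4), or -1.26 on the log2 scale (SE 0.12, edgeR adjusted p = 2.45e-07). On the AhR-poor diet it went from 25.6 ± 3.17 to 15.9 ± 0.930 CPM (SD, n = 4), or -0.69 on the log2 scale (SE 0.12, edgeR adjusted p = 2.21e-04) that did not reach the minimum fold change. The difference between the responses was 0.57, with a 95% interval from 0.21 to 0.93, an unadjusted p of 0.00377 and an edgeR adjusted p of 0.169. Between the diets F2r differed by 0.42 with papain (edgeR adjusted p = 0.0205) and by -0.15 with vehicle (95% interval -0.40 to 0.10), the latter -0.01 without T108. Without T108 the I3C response was -1.12 and the difference between the responses 0.43 (edgeR adjusted p = 0.262).

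F2rl1, the gene of the trypsin and tryptase receptor PAR2, was close to 80 CPM in nearly all libraries. It ranged from 73.4 to 94.1 CPM with vehicle and from 76.7 to 90.5 CPM with papain on the AhR-poor diet, and from 78.0 to 88.0 CPM with papain on the I3C diet. The I3C vehicle libraries held 80.9, 83.1, 87.7 and 162 CPM, where the last is T108, and their mean was 103.4 ± 39.1 CPM (SD, n = 4), or 83.9 ± 3.48 (SD, n = 3) without it. The groups overlapped in every comparison, and the papain response was -0.01 on the AhR-poor diet (95% interval -0.38 to 0.36) and -0.32 on the I3C diet (-0.69 to 0.05), or -0.02 without T108. The diet difference was -0.32 with vehicle (-0.69 to 0.04), or -0.02 without T108, and -0.01 with papain (-0.38 to 0.35). Per length, F2rl1 stood above F2r by a ratio of 4.36 ± 0.878 with vehicle and 8.54 ± 0.880 with papain on the I3C diet (SD, n = 4). The ratios on the AhR-poor diet were 3.94 ± 0.443 and 6.30 ± 0.408 (SD, n = 4). On both diets the ranges with vehicle (3.47 to 5.42 and 3.45 to 4.52) lay under those with papain (7.996 to 9.85 and 5.96 to 6.82).

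A list of 82 genes that act with the 8, in 8 roles, was read from the same model, and 81 of them were tested, Il9 being left out by the minimum count. Between the diets with vehicle none passed and none had an adjusted p below 0.05, and the median was 0.00 on the log2 scale. With papain, 8 were higher on the AhR-poor diet and 0 lower, which is 9.88% of those tested, with a median of 0.16. After papain on the AhR-poor diet 15 were higher and 1 lower (19.8%, median 0.15), while the I3C diet gave 8 higher and 3 lower genes (13.6%, median 0.09). In the interaction 0 passed. Of all genes tested, 1.59% passed between the diets with vehicle and 7.24% with papain. After papain 8.46% passed on the AhR-poor and 8.98% on the I3C diet, and 0.0181% passed in the interaction. The medians of all genes tested are given above.

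Among the 11 genes of the TSLP and IL-7 axis, Il2rg, the common gamma chain that pairs with the IL-7 receptor, rose after papain on the AhR-poor diet from 2.51 ± 0.557 to 7.49 ± 2.82 CPM (SD, n = 4), a log2 fold change of 1.58. It was also higher by 1.42 between the diets with papain. On the I3C diet its means were 1.61 CPM with vehicle and 2.80 CPM with papain, a rise that did not pass. Jak3, the kinase bound to that chain, rose by 1.32 on the AhR-poor diet, with 0.88 on the I3C diet, while Cish, a feedback inhibitor that cytokines induce through STAT5, fell by 1.09 on the log2 scale on the I3C diet and stood at -0.54 on the AhR-poor diet. T108 was the highest I3C vehicle library of Cish (247 CPM, against 137 to 180 CPM in the others), and the fold change without it is not given here. Among the 13 genes of IL-33 and IL-18 receptor signalling, Il18r1 rose on both diets, from 1.51 to 6.62 CPM on the AhR-poor diet (2.14) and from 1.01 to 6.79 CPM on the I3C diet (2.75). Its neighbour Il18rap rose by 3.06 on the AhR-poor diet and stood at 0.88 on the I3C diet (edgeR adjusted p = 0.0810), and the difference between its responses, 2.17 with an SE of 0.52, did not pass either. Among the papain libraries of the AhR-poor diet, T112 was lowest and T105 highest in Il18rap (3.02 and 14.5 CPM) and Il2rg (3.94 and 10.7 CPM), as in the neutrophil and the dendritic cell and monocyte sums given for Il1rl1, and the part of these cells was not tested. Il18bp, a secreted inhibitor of IL-18, rose by 1.41 and 1.46, and the kinase gene Irak4 by 1.12 on the I3C diet, with 0.82 on the AhR-poor diet (edgeR adjusted p = 4.11e-06, below the fold threshold).

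A set of 11 genes was listed for the processing of IL-18 or IL-33. Of these, the inflammasome sensor gene Nlrp3 rose after papain on the AhR-poor diet from 11.5 ± 5.02 to 102.5 ± 70.0 CPM (SD, n = 4), by 3.16. Its libraries T112, T104, T107 and T105 held 28.9, 91.0, 92.4 and 198 CPM with papain on the AhR-poor diet, the same ascending order as the summed neutrophil markers (58.3, 177, 191 and 305 CPM). With papain on the I3C diet T106 was its highest library (11.5 CPM), as it was in the dendritic cell and monocyte sum, while T113 and T114 stood above it in the neutrophil sum (38.3 and 38.2 CPM, against 35.1). The part of these cells was not tested. Gsdmd, which encodes the pore protein gasdermin D, rose by 1.31 after papain on the AhR-poor diet and stood at 0.39 on the I3C diet. With papain, Nlrp3, Gsdmd and the DNA sensor gene Aim2 stood above their I3C levels on the AhR-poor diet, by 3.99, 1.03 and 1.88. Aim2 had means of 1.84 CPM with vehicle and 2.12 CPM with papain on the AhR-poor diet (0.22, edgeR adjusted p = 0.579). On the I3C diet its means were 1.15 CPM with vehicle and 0.578 CPM with papain. Casp1, the gene of the enzyme that cleaves IL-18, passed in none of the comparisons and had means of 28.0 to 40.2 CPM. Its mean went from 38.5 to 28.0 CPM after papain on the AhR-poor diet (-0.46, edgeR adjusted p = 2.18e-04, below the fold threshold). On the I3C diet it went from 40.2 to 29.4 CPM. In the IL-25 axis of 4 genes, the receptor gene Il17rb had log2 fold changes of -1.45 after papain on the AhR-poor diet and -1.80 on the I3C diet.

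Of the 10 genes of the PAR family and its coupling, Procr, the endothelial protein C receptor gene, rose by 1.85 on the AhR-poor diet, with 0.91 on the I3C diet, and Thbd, which encodes thrombomodulin, rose by 1.06 on the I3C diet, with 0.83 on the AhR-poor diet (edgeR adjusted p = 1.85e-05, below the fold threshold). The remaining receptor genes F2rl2 and F2rl3 were below 1 CPM on average in every group. Among 13 proteases and inhibitors that act on PARs, the kallikrein gene Klk6 rose on both diets, from 1.35 to 16.5 CPM (3.59) on the AhR-poor and from 0.882 to 8.51 CPM (3.27) on the I3C diet. F10, the gene of coagulation factor X, went from 2 to 4 counts a library with vehicle on the AhR-poor diet to between 167 and 1260 with papain, or 4.54 to 23.9 CPM, in the same order of libraries as Nlrp3 and the neutrophil markers. Its libraries on the I3C diet held 0 to 23 counts. Among 10 regulators of Tslp expression, Nfatc4 alone passed in any comparison, being higher by 1.39 on the AhR-poor diet with papain. Of 9 type 2 effector genes tested, Ccl17 and Ccl22, ligands of the chemokine receptor CCR4, rose by 3.56 and 2.32 on the AhR-poor diet, and Ccl22 by 2.15 on the I3C diet. Il4ra, the chain shared by the IL-4 and IL-13 receptors, rose by 1.80 and 1.95. Il13ra1, a chain of the IL-13 receptor, rose by 1.04 on the I3C diet, with 0.68 on the AhR-poor diet. The cytokine gene Il13 rose by 1.19 on the AhR-poor diet, with 0.33 on the I3C diet. Among its AhR-poor papain libraries T112 was lowest (1.58 CPM) and T105 highest (2.52 CPM), as in the mast cell and neutrophil sums. On the I3C diet T106 held 2.09 CPM with papain and the other libraries 0.542 to 0.898 CPM. With vehicle on that diet the range was 0.739 to 1.03 CPM. Il5 also rose after papain on the AhR-poor diet, and F2, the prothrombin gene, was lower after papain on the I3C diet, both below 1 CPM in every group. With vehicle on the I3C diet T111 held 21 counts of F2 and the other libraries 2 to 4.

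**Figure D5:**
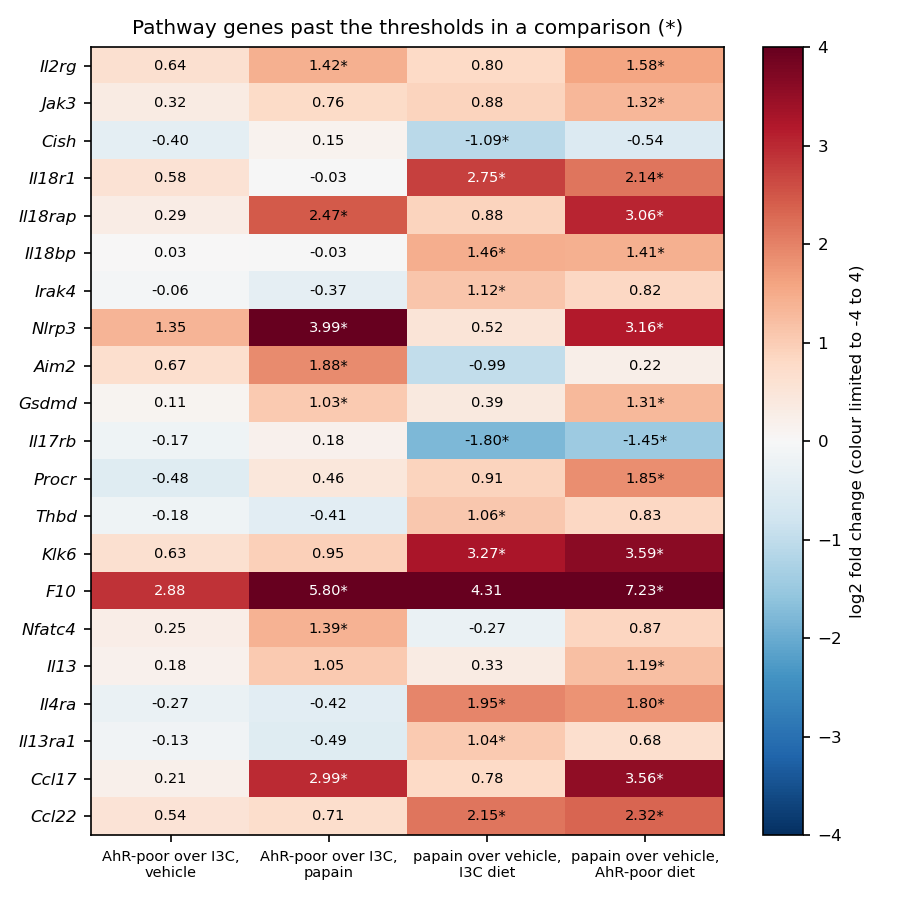
Log2 fold change in 4 comparisons (columns) of the pathway genes (rows) that passed the thresholds in at least 1 of them, marked by an asterisk, and reached a mean of 1 CPM in a group. The colour stops at -4 and 4, and the F10 values (up to 7.23) depend on groups with few counts. Il18r1 rose on both diets (2.75 and 2.14), while Nlrp3 stood at 3.16 on the AhR-poor and 0.52 on the I3C diet.

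The genes whose pattern over the 16 libraries was most like that of each member were sought among 13018 genes, by the root mean square difference of log2 CPM centred on each gene's mean. Crlf2 was followed most closely by Ninj1, with a difference of 0.0856 against a spread of 0.401 for Crlf2 itself, and then by Ubxn11 (0.144). F2r was followed by Sh3d21 (0.0799) and the collagen gene Col16a1 (0.116), with a spread of 0.517. Il7r was followed by Cd83 (0.179), a marker of mature dendritic cells, and Nxpe5 (0.186), with a spread of 0.625. For Tslp the nearest were the prostaglandin E synthase gene Ptges (0.250) and Tnfrsf18 (0.259), with a spread of 0.854, and for Il18 Cst7 and Runx2 (0.254 each, spread 0.628). Il1rl1 was nearest to the chemokine gene Cxcl5 (0.352), with a spread of 2.51. Cxcl5 had means of 20.5 CPM with papain on the AhR-poor diet and at most 0.0446 CPM in the other groups. F2rl1 (nearest 1810013L24Rik at 0.0968 and Rela at 0.104, spread 0.250) and Il33 (Snord69 at 0.239 and Rab11fip5 at 0.240, spread 0.335) had little spread to follow. All of these genes share the libraries, and no test was made of the likeness.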

How the data were processed

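The authors made TruSeq Stranded libraries from epidermal cells, sequenced 100 nt paired-end reads, aligned them to mm10 with STAR and deposited raw counts per gene and library. The counting tool, annotation and strand setting are not given in the sources used here. The 8 genes, the pathway list and the marker lists were chosen with earlier results of these data known. Symbols and exon lengths came from GENCODE M21 (50376 of 50600 identifiers matched), and positions are on GRCm38. Groups came from the labels alone. In edgeR 4.0.16 (R 4.3.3), genes with at least 10 counts were kept, TMM factors (0.937 to 1.07) were applied and a mean per group was fitted over 16 libraries, with the robust quasi-likelihood F test and Benjamini-Hochberg adjustment over 22155 genes. Replicates varied by more than counting error (chi-square over degrees of freedom, 9.43 or more). CPM are counts scaled to the library total and TMM factor. Exact permutation tests were two-sided, on log2(CPM + 0.5). The model was tested on simulated data. Pathway genes named are those that passed, at most 3 per role and comparison with a mean of at least 1 CPM in a group, and those below it without a fold change. Casp1, F2rl2, F2rl3 and Il13 were named outside that rule, after their values were seen. Likeness used genes with a mean of at least 1 CPM. A gene that the likeness rule named is not reported here. Alternatives were RLE factors, library size only, other minimum counts, DESeq2 1.42.0, only the libraries compared, other thresholds, pseudocounts and leaving out each library. No library was left out of the main results.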

Additional observations from a re-analysis of the deposited data

Results flagged for a closer look

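F2rl1 in library T108 of the I3C vehicle group, at 162 CPM, stood far from the other 3 mice of its group (80.9 to 87.7 CPM). Its gap to the nearest library, set against the whole range of the group, was above the 95% critical value of Dixon's test. This was 1 of 32 groups of 4 libraries tested, of which chance would put about 1 in 20 past that value. Tslp (4.22 CPM), Il33 (36.2 CPM) and F2r (36.3 CPM) were also highest in T108 within that group, without passing the same test.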

How the results depend on the processing

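With vehicle, 0 of the 8 genes passed between the diets, beside 352 of all genes. In DESeq2 2 passed (Il7r and Il1rl1), beside 601 of all genes. The model fitted to the 8 libraries of that comparison gave 1 (Il7r), beside 502. An adjusted p below 0.05 with any fold change gave 1 (Il7r), beside 683. Leaving out single libraries gave 0 to 1 (Il7r without T115, beside 373 of all genes). With papain, 3 passed, beside 1605 of all genes. The model fitted to the 8 libraries of that comparison gave 2 (Il7r was lost), beside 1303. With any fold change 5 passed at an adjusted p below 0.05 and 4 below 0.01 (beside 20.7% and 11.2% of all genes). When single libraries were left out 1 to 3 passed, of which Il1rl1 alone without T115 (beside 1265 of all genes). The papain response on the AhR-poor diet gave 3 genes and 5 without a minimum fold change, at an adjusted p below 0.05 or below 0.01 (beside 33.4% and 22.5% of all genes). The response on the I3C diet gave 2, beside 1989 of all genes, and 3 in DESeq2 (Il1rl1 in addition), beside 2115. The interaction gave 0, beside 4 of all genes, and 1 in DESeq2 (Il1rl1), beside 205. A minimum of 10 counts in every library left Il1rl1 untested.

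Of the log2 fold changes of single genes, 923 values kept their direction and side of the threshold, 14 passed newly, 7 no longer passed and 43 changed sign. All 43 were of comparisons in which the gene did not pass. F2rl1 changed sign between the diets with papain to 0.0919 with library size only and 0.0359 with 10 counts in every library (-0.0612 to 0.0197 with single libraries left out). In its papain response on the AhR-poor diet it changed to 0.0210 with RLE factors, 0.00533 with library size only, 0.000647 with filterByExpr, 0.0140 with 10 counts in every library and 0.0214 in DESeq2 (-0.0655 to 0.0679 with single libraries left out). Tslp changed to 0.0156 between the diets with vehicle with library size only. With single libraries left out it ranged there from -0.28 to 0.29, between the diets with papain from -0.0548 to 0.12 and in the interaction from -0.26 to 0.32. Il33 ranged from -0.26 to 0.12 and from -0.11 to 0.27 between the diets with vehicle and papain, from -0.0146 to 0.21 and from -0.29 to 0.16 in the papain responses with AhR-poor and with I3C feeding, and from -0.0722 to 0.39 in the interaction. The interaction of Il7r ranged from -0.15 to 0.26. The cause of these changes was not tested. With another pseudocount, all 64 differences of mean log2 CPM kept their sign and their side of an exact permutation p of 0.05. With RLE factors or library size only, all 64 mean levels per length stayed within the SD between libraries of their group.

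Over all genes, the vehicle count of 352 became 58 and the papain counts of 1605 and 1874 became 561 and 997 with 10 counts in every library, which tests fewer genes. DESeq2 called 601 with vehicle and 205 in the interaction, where edgeR called 4, or 2 to 95 with single libraries left out (95 without T112 and 31 without T106). Leaving out T110 gave the lowest vehicle count, 194, and leaving out T106 the highest, 430. Depth limits Il1rl1 on the I3C diet, with 4 and 29 counts in all. No paired analysis was possible because library codes are not shared between groups.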
